A study of Mus musculus with 18 samples.

Results

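Endoplasmic reticulum chaperones and genes of the unfolded protein response were followed in prostate RNA from mice of 3 TRAMP lines. The 32 genes were chosen by name, with earlier results of these data known, and all 32 were matched among the 55469 gene identifiers of the tables. The lines were WT-TRAMP (genotype ELAC2+/+ / TRAMP +/-), KO-TRAMP (ELAC2-/- / TRAMP +/-) and A537T-TRAMP (ELAC2A537T / TRAMP +/-), each at 10 and 30 weeks of age with 3 male mice, which gave 18 libraries. Every mouse carried the heterozygous TRAMP transgene, which drives SV40 T antigen in the prostate epithelium, so no comparison here is against a prostate without the oncogene. ELAC2 is the RNase Z that trims the 3′ ends of tRNAs. In the KO line the deletion is made by Cre under the probasin promoter, so cells outside the prostate epithelium keep the gene, while A537T is a homozygous germline point mutation. The strain label is C56NL/6N for all mice, the tissue was the ventral and lateral lobes, and the seminal vesicles and adipose tissue were removed at dissection. Within each table the libraries are called by the numbers in the headers, 1 to 3 for WT-TRAMP, 4 to 6 for A537T-TRAMP and 7 to 9 for KO-TRAMP at 10 weeks, and 10 to 12, 13 to 15 and 16 to 18 for the same lines at 30 weeks.

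Secretory epithelium such as that of the prostate folds large amounts of protein in the endoplasmic reticulum. When unfolded protein accumulates, 3 sensors in its membrane respond: IRE1 (encoded by Ern1) splices the Xbp1 mRNA, PERK (Eif2ak3) slows translation, and ATF6 (Atf6) moves to the Golgi, where its cytosolic part is released as a transcription factor. XBP1 and ATF6 then raise the genes of chaperones, protein disulfide isomerases, and the machinery that returns misfolded protein to the cytosol for degradation. Gene level counts report the amount of Xbp1 mRNA and not its splicing, and say nothing of the phosphorylation of PERK or the cleavage of ATF6.

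Promoter sequence is shown because 9 members carry the ER stress response element (ERSE). Through this DNA element ATF6, together with the CCAAT-binding factor NF-Y, acts on chaperone genes. The element searched was CCAAT, any 9 bases and CCACG, on both strands, in RefSeq promoter windows on GRCm38.p6 from 250 bases before to 50 bases after the annotated start. Of the 32 members, 27 had a window, and 9 of these 27 held the element, against 37 of all 27025 genes with a window (0.137%). The members were chosen by name as genes of this response, so these shares are not a test. The 5 members with no window were Sec61a1, Hyou1, Atf6, Manf and Derl1. Each sequence is given 5′ to 3′ on the strand of its gene, with the element in capitals. On the opposite strand it reads CGTGG, 9 bases and ATTGG.
Hspa5, chr2:34772020-34772048, gene on the + strand: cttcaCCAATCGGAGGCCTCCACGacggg
Pdia6, chr12:17266486-17266514, gene on the + strand: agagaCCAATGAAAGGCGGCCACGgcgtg
Dnajc3, chr14:118937822-118937850, gene on the + strand: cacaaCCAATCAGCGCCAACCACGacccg
Canx, chr11:50325795-50325823, gene on the - strand: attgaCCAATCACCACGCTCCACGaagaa
Syvn1, chr19:6046527-6046555, gene on the + strand: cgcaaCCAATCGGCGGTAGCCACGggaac
Calr, chr8:84847070-84847098, gene on the - strand, element on the opposite strand: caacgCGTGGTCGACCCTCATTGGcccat
Derl3, chr10:75893237-75893265, gene on the + strand, element on the opposite strand: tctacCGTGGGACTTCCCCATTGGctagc
Creld2, chr15:88819515-88819543, gene on the + strand, element on the opposite strand: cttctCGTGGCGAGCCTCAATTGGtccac

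The Hsp90b1 promoter held the element at 2 places, in opposite orientations, from 212 to 194 and from 107 to 89 bases before the RefSeq start. Its 185 bases at chr10:86705510-86705694, which lie before the starts of both RefSeq and GENCODE on the minus strand, are printed with both elements in capitals.
Hsp90b1: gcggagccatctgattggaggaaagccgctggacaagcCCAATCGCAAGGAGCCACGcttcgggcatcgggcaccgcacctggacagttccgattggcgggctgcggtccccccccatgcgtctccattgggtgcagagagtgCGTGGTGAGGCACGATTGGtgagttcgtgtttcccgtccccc
The other elements stood between 162 bases (Calr) and 26 bases (Syvn1) before the start. The related element ERSE-II, ATTGG, any base and CCACG, was found in 12 genes with a window (0.0444%), of which Herpud1 and Dnajb11 are members. In Herpud1, on the + strand, it lay from 52 to 42 bases before the start.
Herpud1, chr8:94386372-94386392: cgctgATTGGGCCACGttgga
The core of the XBP1 site, TGACGTG, was in 601 genes (2.22%), with Hspa5 as its only member, from 157 to 151 bases before the start. These are matches of letters, and absence of a match in a window says nothing of a factor's action there.

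Between 9380174 and 14830104 reads were assigned to genes per library, so the members were well sampled. The deposited values are normalized counts, in which the library sizes were equalised by the authors within each table of 6 libraries. WT-TRAMP libraries are shared by the KO-TRAMP and A537T-TRAMP comparisons of an age, which are therefore not independent. Elac2 itself ranged from 289 to 359 normalized counts in WT-TRAMP and from 254 to 301 in KO-TRAMP at 10 weeks, and from 251 to 320 and 249 to 267 at 30 weeks, so the groups overlapped at both ages. The deletion removes an exon in epithelial cells only, and the gene's total therefore does not check the label. Markers of luminal prostate epithelium were all detected (12 of 12) in every group, with 0.249% to 0.671% of reads. Seminal vesicle markers (7 genes) took from 0.000106% to 9.04% of reads, most in library 5. No column can be tied to a replicate number of the labels, and p-values weigh a difference between groups against the spread between these mice.

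The members were abundant in WT-TRAMP prostate. Per kilobase of exon, P4hb, the protein disulfide isomerase that is also a subunit of prolyl hydroxylase, was highest at both ages, with 5588 ± 639 normalized counts per kb at 10 weeks and 4870 ± 499 at 30 weeks (SD, n = 3). Calr (calreticulin, a lectin chaperone that binds calcium) followed at 3026 ± 230 and 2935 ± 448, then Hsp90b1 (GRP94, the lumenal Hsp90) at 2283 ± 80.5 and 2380 ± 325, and Hspa5 (BiP, the lumenal Hsp70 that holds the sensors inactive) at 2123 ± 284 and 2101 ± 169. The spread of neighbours in this order overlapped for Hsp90b1 and Hspa5 at both ages. Low in the order were the sensors, with Ern1 at 236 ± 36.1, Atf6 at 149 ± 18.6 and Eif2ak3 at 128 ± 11.3 normalized counts per kb at 10 weeks, and the lowest was Derl2, a channel component of ER-associated degradation, at 80.3 ± 10.1. Xbp1 stood above the sensors, at 813 ± 44.5. The first 6 places were the same at the 2 ages. Reads of Sec61b, Dnajb9 and Derl1 are the least certain, since 23.5%, 10.8% and 8.60% of their 31-base words also occur in any other gene or pseudogene.

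At 10 weeks every KO-TRAMP library was above every WT-TRAMP library for all 4 disulfide isomerases and all 3 lumenal Hsp70 and Hsp90 chaperones. The same held for Calr (log2 fold change 0.39) and the co-chaperone Sdf2l1 (0.46). The groups overlapped for Canx (0.11), Dnajb11 (0.32), Dnajc3 (0.23) and Dnajb9 (0.024). In limma no member passed an adjusted p of 0.05 (0.0129% of the 15451 genes tested did), 14 of 32 had an unadjusted p under 0.05 and were higher (3.71% of all genes), and 26 of 32 had a log2 fold change above 0 (48.9% of all genes). All 3 KO-TRAMP libraries lay above all 3 WT-TRAMP libraries for 12 members (5.77% of all genes) and below for 0. The median log2 fold change was 0.22 over the members and -0.0060 over all genes. The 32 members together took 0.913%, 0.938% and 0.986% of the reads in WT-TRAMP and 1.39%, 1.12% and 1.27% in KO-TRAMP. In bulk tissue a change in the share of cells that make much of a transcript cannot be told apart from a change in its amount per cell.

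**Figure D1:**
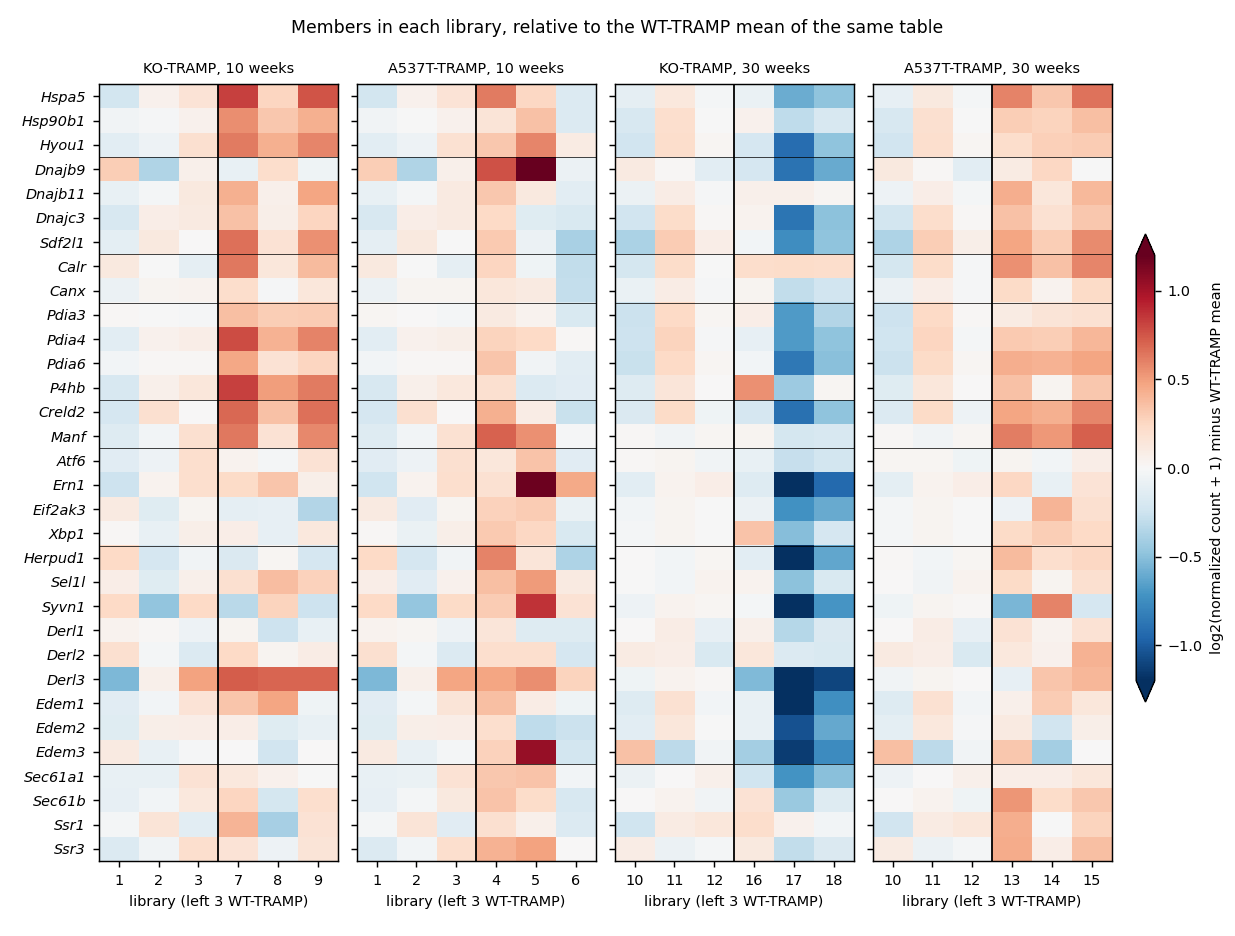
Each row is a member, in the order of their roles, and each column a library. The colour is log2(normalized count + 1) minus the mean of the 3 WT-TRAMP libraries of the same table. Libraries 7 to 9 are red over most chaperones and the isomerases, libraries 17 and 18 are blue over most rows while library 16 is not, and libraries 13 to 15 are red over most chaperones.

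Hspa5 had 7666, 9249 and 10023 normalized counts in WT-TRAMP and 15794, 10703 and 15103 in KO-TRAMP. The groups did not overlap, but library 8 lay closer to WT-TRAMP than to libraries 7 and 9. On the log2 scale KO-TRAMP was higher by 0.62 ± 0.17 (SE; adjusted p = 0.711 in limma). P4hb had 13938, 16581 and 17444 in WT-TRAMP and 28099, 22541 and 24500 in KO-TRAMP, again without overlap (log2 fold change 0.65 ± 0.13, adjusted p = 0.574). Pdia4, a further isomerase, had 2724, 3090 and 3144 against 5144, 3978 and 4505 (0.60 ± 0.12, adjusted p = 0.574). Hyou1 (GRP170), the nucleotide exchange factor that resets BiP, had 3687, 3843 and 4591 against 6191, 5412 and 6052 (0.55 ± 0.11, adjusted p = 0.574). In each of these genes library 7 was the highest, as it was for 17 of the 32 members.

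Creld2, a small stress protein of the lumen, had 561, 736 and 649 normalized counts in WT-TRAMP and 1040, 822 and 1021 in KO-TRAMP (0.57 ± 0.14, adjusted p = 0.679). Hsp90b1 rested on a tighter spread, with 8918, 9140 and 9557 against 13529, 11505 and 12403 (0.44 ± 0.10, adjusted p = 0.659). Pdia3 (ERp57), which oxidises glycoproteins held by the lectin chaperones, had 5637, 5555 and 5507 against 7170, 6810 and 6871 (0.32 ± 0.08, adjusted p = 0.695). All of these groups stood apart. Derl3, which is induced by XBP1, had the largest log2 fold change of the members, 0.71 ± 0.23, with 281, 427 and 572 in WT-TRAMP and 677, 663 and 664 in KO-TRAMP. Its KO-TRAMP values were close together and the WT-TRAMP values wide.

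The log2 fold changes of the sensors and Xbp1 were 0.064 ± 0.12 for Atf6 (adjusted p = 0.945), 0.21 ± 0.13 for Ern1 (0.811), -0.19 ± 0.12 for Eif2ak3 (0.811) and 0.040 ± 0.10 for Xbp1 (0.959), and in each the groups overlapped. Their difference from the chaperones was not tested. Xbp1, for example, had 2665, 2485 and 2771 normalized counts against 2794, 2468 and 2889. Among the 9 genes of ER-associated degradation 4 were above 0, with a median of -0.051, and only Derl3 and Sel1l (the adaptor of the Hrd1 ligase) stood apart from WT-TRAMP. Herpud1, Syvn1 (Hrd1 itself), Derl1, Edem2 and Edem3 had negative values between -0.12 and -0.051. The 4 translocon genes Sec61a1, Sec61b, Ssr1 and Ssr3 lay between 0.060 and 0.084.

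Members with the ERSE had a median log2 fold change of 0.39 (8 of 9 above 0), and the 16 members with a window but neither element had a median of 0.10 (13 of 16). Syvn1 held the element and was at -0.10, while P4hb and Pdia4 held none and were among the highest. edgeR on the recovered reads called 0 members, with 14 at an unadjusted p under 0.05 (1068 of all 15451 genes), and DESeq2 called 6 (Hspa5, Hsp90b1, Hyou1, P4hb, Pdia4 and Pdia3, all higher, among 81 genes in all). Without library 7, 9 members had an unadjusted p under 0.05 in place of 14 (1118 of 15504 genes did). Seminal vesicle markers moved with the groups, at 0.000176% to 0.000459% of reads in WT-TRAMP, with Svs3a at 0, and 0.000898%, 0.0522% and 1.63% in libraries 7, 8 and 9. Smooth muscle markers (6 of 6 detected) took 0.0383% to 0.0629% in WT-TRAMP and 0.0714% to 0.109% in KO-TRAMP, and luminal markers 0.534% to 0.649% and 0.469% to 0.507%. The mean log2 level of the 12 luminal markers overlapped, at 11.46 to 11.9 in WT-TRAMP and 11.76 to 11.86 in KO-TRAMP. Of these markers 3 were above 0 and 9 below. The part of these cells in the result was not tested.

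**Figure D2:**
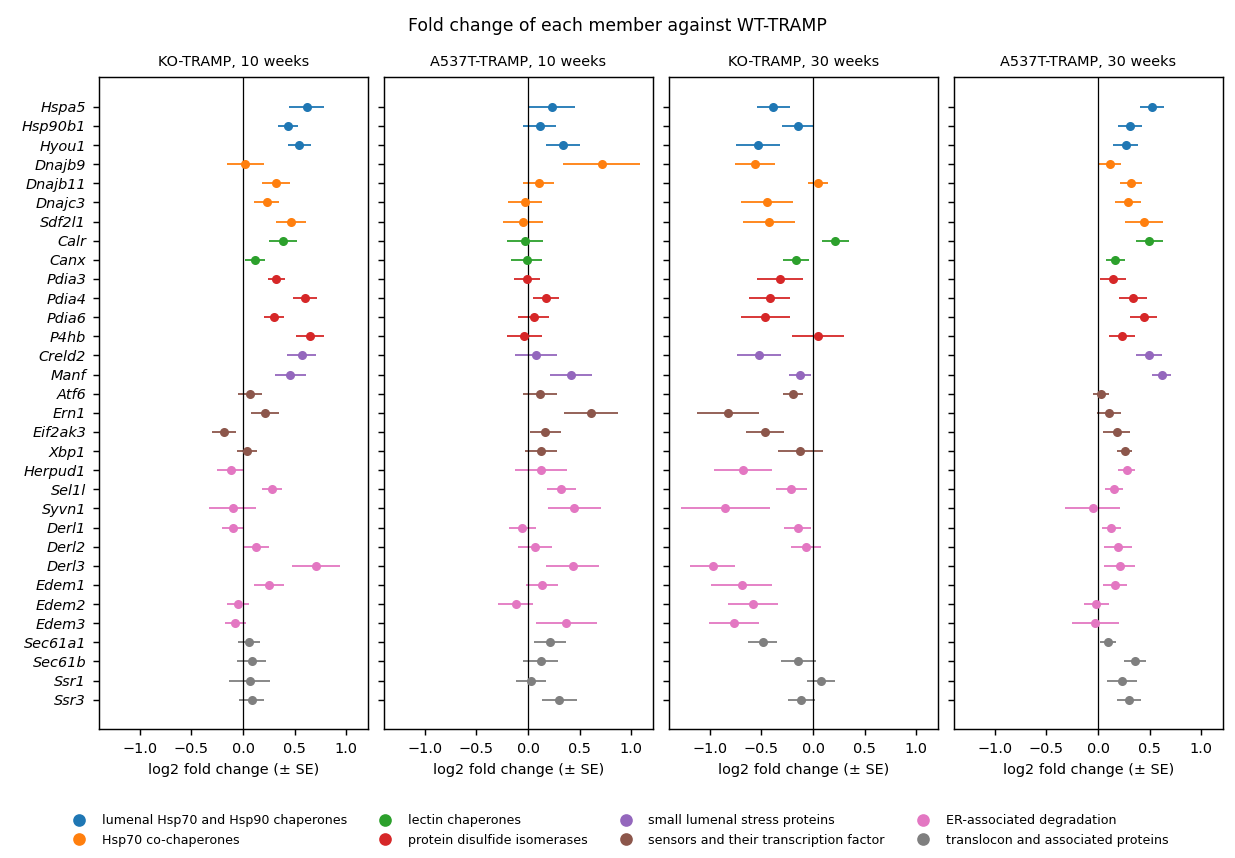
Points are log2 fold changes against WT-TRAMP with their standard errors (limma, 3 against 3 libraries), coloured by role. In KO-TRAMP the chaperones and isomerases lie to the right of 0 at 10 weeks and mostly to the left at 30 weeks, and in A537T-TRAMP 29 of 32 members lie to the right at 30 weeks.

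In A537T-TRAMP at 10 weeks the members were close to WT-TRAMP and differed between mice more than between groups. No member passed an adjusted p of 0.05 (0.00648% of 15438 genes did) and 0 had an unadjusted p under 0.05 (7.89% of all genes), while 24 of 32 were above 0 (49.1% of all genes). edgeR called 0 members and 0 genes, with 2 members at an unadjusted p under 0.05 (1363 of 15438 genes). DESeq2 called 0 members and 148 genes, with 3 members at an unadjusted p under 0.05 (1588 genes). Sel1l alone had all A537T-TRAMP libraries above all WT-TRAMP libraries (6.92% of all genes did), with 1894, 1624 and 1857 against 2289, 2540 and 1926 normalized counts (log2 fold change 0.32 ± 0.14, adjusted p = 0.600). The median was 0.12 over the members. Here members with an ERSE had a median of 0.081 (6 of 9 above 0), and those with neither element 0.13 (12 of 16).

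Hspa5 had 6785, 8196 and 8834 normalized counts in WT-TRAMP and 12119, 9346 and 7042 in libraries 4, 5 and 6. Libraries 4 and 5 were above all WT-TRAMP libraries and library 6 was within their range (0.23 ± 0.22, adjusted p = 0.719). Library 4 was the highest of the 6 for 19 members, library 5 for 13, and library 6 was the lowest for 16. The 4 disulfide isomerases lay between -0.035 (P4hb) and 0.17 (Pdia4) on the log2 scale.

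Library 5 set several of the larger values. Ern1 had 1426, 1743 and 1935 normalized counts in WT-TRAMP and 1918, 3825 and 2315 in A537T-TRAMP (0.61 ± 0.26, adjusted p = 0.600). Dnajb9 (ERdj4), the co-chaperone that keeps IRE1 inactive with BiP, had 533, 339 and 453 against 737, 1191 and 414 (0.72 ± 0.37, adjusted p = 0.601). Syvn1 had 700, 429 and 698 against 737, 1084 and 668 (0.45 ± 0.26, adjusted p = 0.607). Library 5 was the highest of the 6 libraries in each of these genes.

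Hyou1 (0.34 ± 0.16), Manf, a secreted protein that binds BiP (0.42 ± 0.21), and Ssr3, a translocon-associated protein (0.30 ± 0.17), had adjusted p of 0.600, 0.600 and 0.606. The remaining sensors were at 0.11 ± 0.16 for Atf6, 0.17 ± 0.15 for Eif2ak3 and 0.13 ± 0.16 for Xbp1, with adjusted p of 0.816, 0.711 and 0.794. Seminal vesicle markers took 0.0487%, 9.04% and 1.23% of reads in libraries 4, 5 and 6, against 0.000176% to 0.000459% in WT-TRAMP, and all 7 lay above WT-TRAMP. Smooth muscle markers took 0.0959% to 0.213% against 0.0371% to 0.0609%, and library 5 had the lowest share of luminal markers, 0.249%. Without libraries 5 and 6, which leaves library 4 alone and assumes that it varies like WT-TRAMP, the members' median was 0.31 and 5 had an unadjusted p under 0.05 (527 of 15002 genes). Without library 6 alone 6 did (933 of 15279 genes). The part of these tissues in these values was not tested.

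At 30 weeks most members were lower in KO-TRAMP than in WT-TRAMP, and 2 of the 3 mice carried the difference. No member passed an adjusted p of 0.05 (0.213% of 16900 genes did). An unadjusted p under 0.05 with a lower level was found for 8 of 32 (5.84% of all genes), all 3 KO-TRAMP libraries lay below all WT-TRAMP libraries for 9 (9.48%) and above for 0, and 28 were below 0 (49.1%). The median log2 fold change was -0.40 over the members and 0.010 over all genes. Library 17 was the lowest of the 6 for 28 members, and library 16 was the lowest for 0 and the highest for 8.

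Derl3 had the smallest p, with 370, 394 and 388 normalized counts in WT-TRAMP and 266, 156 and 179 in KO-TRAMP. All 3 mice were lower, library 16 included (log2 fold change -0.97 ± 0.22, adjusted p = 0.244). Sec61a1, the pore of the translocon, had 4157, 4369 and 4539 against 3695, 2640 and 3070 (-0.49 ± 0.14, adjusted p = 0.327). Edem3, which trims mannose from misfolded glycoproteins, had 3906, 2467 and 2985 against 2314, 1393 and 1817 (-0.77 ± 0.24, adjusted p = 0.332). Dnajb9 had 697, 652 and 590 against 561, 349 and 424 (-0.56 ± 0.19, adjusted p = 0.345). The groups stood apart in these 4 genes, and in each library 16 was the nearest to WT-TRAMP.

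Ern1 and Eif2ak3 lay below the members' median of -0.40, and Atf6 above it. Ern1 had 2419, 2716 and 2792 normalized counts in WT-TRAMP and 2370, 1016 and 1382 in KO-TRAMP, without overlap but with library 16 just below WT-TRAMP (-0.82 ± 0.30, adjusted p = 0.358). Eif2ak3 had 754, 788 and 769 against 732, 466 and 506 (-0.47 ± 0.18, adjusted p = 0.365), and Atf6 1519, 1535 and 1454 against 1416, 1237 and 1286 (-0.20 ± 0.10, adjusted p = 0.40). Xbp1 had 2433, 2535 and 2469 against 3136, 1743 and 2157. Library 16 was above WT-TRAMP and libraries 17 and 18 below it, so the groups overlapped (-0.12 ± 0.22, adjusted p = 0.775).

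Hspa5 had 8249, 9657 and 8753 normalized counts in WT-TRAMP and 8410, 5855 and 6354 in KO-TRAMP, where library 16 was within the range of WT-TRAMP (-0.39 ± 0.16, adjusted p = 0.370). Hyou1 had 3611, 4900 and 4322 against 3690, 2254 and 3031 (-0.53 ± 0.21, adjusted p = 0.365), and Creld2 had 511, 678 and 557 against 503, 310 and 414 (-0.53 ± 0.21, adjusted p = 0.368). P4hb had 20301 in library 16 and 10284 and 14125 in libraries 17 and 18, against 12488 to 15342 in WT-TRAMP. Calr was not lower, with 7227, 9797 and 8336 against 9733, 9766 and 9714 (0.22 ± 0.13), and Ssr1, Dnajb11 and P4hb were the other 3 members above 0.

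All 9 genes of ER-associated degradation were below 0, with a median of -0.68, from -0.97 (Derl3) to -0.070 (Derl2). Syvn1 was at -0.85 ± 0.43 and Edem1 at -0.69 ± 0.29. Herpud1, the scaffold of the Hrd1 complex, was at -0.68 ± 0.28 and Edem2 at -0.58 ± 0.24. Outside the members, 16 other genes of ER-associated degradation had a median of 0.010, with 8 above 0 and 8 below. The difference between these lists was not tested. The members with an ERSE had a median of -0.44 (8 of 9 below 0), near the -0.37 of the members with neither element (14 of 16).

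The result depended on single mice. Without library 16, limma called 11 members (3064 of 16950 genes in all), among them Derl3, Ern1, Eif2ak3, Hspa5, Sec61a1 and 4 genes of the Edem and Herpud1 group, all lower. Without libraries 17 and 18, which leaves library 16 alone and assumes that it varies like WT-TRAMP, the members' median was -0.028, 17 of 32 were below 0 and 3 had an unadjusted p under 0.05 (1220 of 16485 genes). edgeR called 0 members, with 4 at an unadjusted p under 0.05 (2643 of 16900 genes), and DESeq2 called 1, Derl3, among 805 genes in all. Neuroendocrine markers (8 of 8 detected) took 0.15% and 0.0946% of reads in libraries 17 and 18, 0.00261% in library 16, and 0.00279% to 0.0283% in WT-TRAMP. The mean log2 level of the 12 luminal markers was 10.7 and 11 in libraries 17 and 18, 11.3 in library 16, and 11.3 to 11.5 in WT-TRAMP, while their share of reads was 0.358%, 0.363%, 0.366% and 0.316% to 0.405% in the same order. Fibroblast markers (6 of 6) took 0.155% to 0.194% in KO-TRAMP and 0.0364% to 0.0419% in WT-TRAMP. Basal epithelial markers (4 of 4 detected) took 0.0215% and 0.0150% in libraries 17 and 18, 0.00276% in library 16 and 0.00316% to 0.00340% in WT-TRAMP. They did not move together, with 3 above 0 and 1 below. The latter was at a log2 fold change of -1.33, with all KO-TRAMP libraries below all WT-TRAMP libraries. Endothelial markers (4 of 4) took 0.00410% to 0.00762% in KO-TRAMP and 0.00265% to 0.00280% in WT-TRAMP. Macrophage markers (6 of 6) took 0.0269% to 0.0318% and 0.00949% to 0.0119%. Plasma and B cell markers, of cells rich in this machinery, took 0.00277% to 0.00736% in KO-TRAMP and 0.0145% to 0.0152% in WT-TRAMP, where Tnfrsf17 was at 0. The part of these cell types in the members' levels was not tested.

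In A537T-TRAMP at 30 weeks many chaperones were higher than in WT-TRAMP in all 3 mice. No member passed an adjusted p of 0.05, nor did any gene (0% of 16261), and 13 of 32 had an unadjusted p under 0.05 and were higher (3.98% of all genes). All A537T-TRAMP libraries were above all WT-TRAMP libraries for 13 members (7.36% of all genes) and below for 0, and 29 were above 0 (50% of all genes). The median log2 fold change was 0.23 over the members and 0.00025 over all genes. The members took 0.853%, 0.988% and 0.915% of reads in WT-TRAMP and 1.08%, 0.983% and 1.14% in libraries 13, 14 and 15.

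Manf had the smallest p of the members in any comparison, with 879, 843 and 883 normalized counts in WT-TRAMP and 1333, 1244 and 1423 in A537T-TRAMP. Each group was tight and they did not overlap (0.62 ± 0.09, adjusted p = 0.201). Hspa5 had 7517, 8733 and 7917 against 12155, 10081 and 12617 (0.52 ± 0.12, adjusted p = 0.436). Creld2 had 482, 633 and 521 against 755, 729 and 812 (0.50 ± 0.13, adjusted p = 0.516). Calr had 6708, 9023 and 7681 against 11343, 9876 and 11611 (0.49 ± 0.13, adjusted p = 0.550), and Pdia6, an isomerase that also restrains IRE1, had 3739, 5247 and 4543 against 6037, 5975 and 6189 (0.44 ± 0.13, adjusted p = 0.599). None of these groups overlapped.

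**Figure D3:**
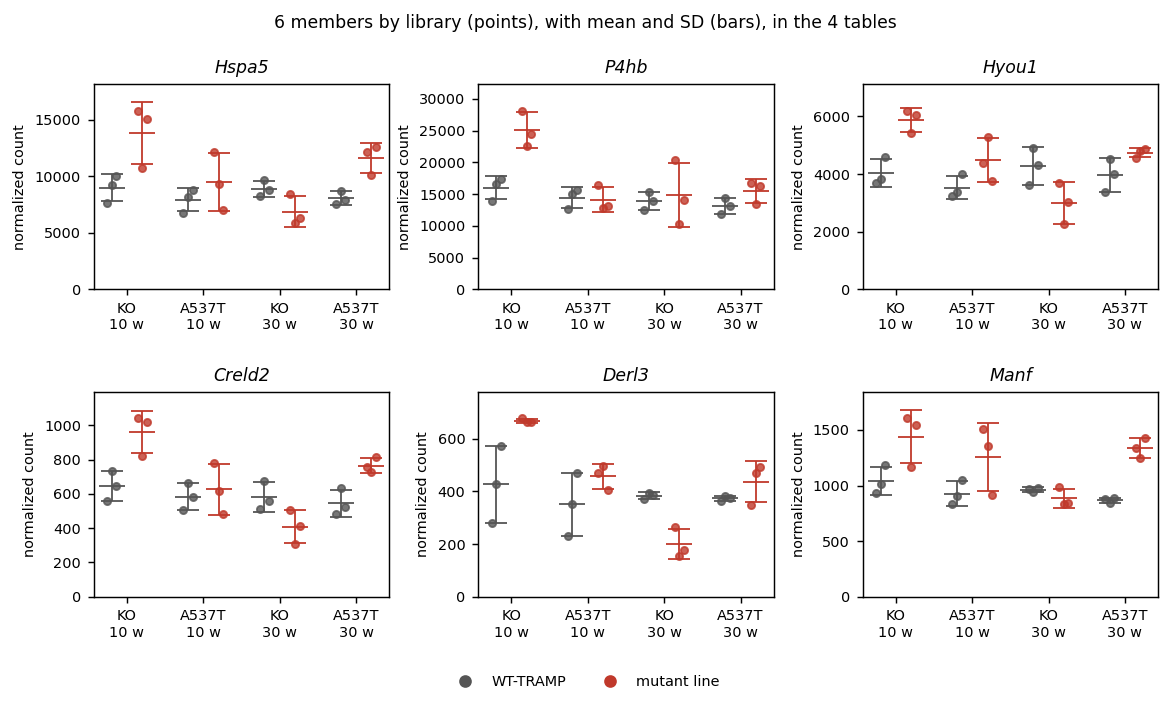
Points are the normalized counts of single libraries and bars the mean and SD (n = 3), for WT-TRAMP in grey and the mutant line in red, in the 4 tables. The vertical axes start at 0. Hspa5, P4hb, Hyou1, Creld2 and Derl3 stood above WT-TRAMP in KO-TRAMP at 10 weeks, and Creld2 and Derl3 below it at 30 weeks. In A537T-TRAMP at 30 weeks Hspa5, Hyou1, Creld2 and Manf stood above WT-TRAMP.

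Xbp1 was the sensor-side gene that stood apart here, with 2267, 2345 and 2284 normalized counts in WT-TRAMP and 2694, 2830 and 2718 in A537T-TRAMP (0.26 ± 0.08, adjusted p = 0.601). The sensors overlapped with WT-TRAMP, at 0.029 ± 0.08 for Atf6 (adjusted p = 0.960), 0.11 ± 0.11 for Ern1 (0.857) and 0.18 ± 0.13 for Eif2ak3 (0.794). Herpud1 had 1869, 1805 and 1875 against 2404, 2132 and 2202 (0.28 ± 0.08, adjusted p = 0.616), and Sec61b, a small subunit of the translocon, 584, 599 and 562 against 837, 680 and 729 (0.36 ± 0.11, adjusted p = 0.616). The other genes of ER-associated degradation lay between -0.053 (Syvn1) and 0.21 (Derl3).

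Among the co-chaperones Dnajb11 (ERdj3) was at 0.32 ± 0.11, Sdf2l1, its partner, at 0.44 ± 0.18, Dnajc3, an inhibitor of PERK as well as a co-chaperone, at 0.29 ± 0.13 and Dnajb9 at 0.11 ± 0.11. Canx, the membrane-bound lectin chaperone, was at 0.17 ± 0.09. Members with an ERSE had a median of 0.31 (8 of 9 above 0) and those with neither element 0.19 (14 of 16). edgeR called 0 members, with 10 at an unadjusted p under 0.05 (1382 of 16261 genes), and DESeq2 called 3, Manf, Hspa5 and Calr, among 165 genes in all. Without library 12 the count at an unadjusted p under 0.05 was 8 in place of 13 (595 of 16224 genes). Plasma and B cell markers took 0.00448% to 0.00934% of reads in A537T-TRAMP and 0.0143% to 0.0150% in WT-TRAMP, with Tnfrsf17 at 0 in both. Their mean log2 level overlapped, at 3.16 to 3.89 in A537T-TRAMP and 3.77 to 4.41 in WT-TRAMP. Only 4 of the 12 were high enough to be tested. Adipocyte markers (4 of 4 detected) took 0.000219% to 0.000912% in A537T-TRAMP and 0.00308% to 0.00889% in WT-TRAMP, and fibroblast markers (6 of 6) 0.0584% to 0.0966% and 0.0371% to 0.0427%. Seminal vesicle markers were high and low within both groups, from 0.000106% to 5.45% of reads. The part of these cell types was not tested.

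The difference between ages was tested directly, as the effect at 30 weeks minus the effect at 10 weeks, in tables that share no library. For KO-TRAMP no member passed an adjusted p of 0.05 and no gene did (0% of 16431), 16 of 32 had an unadjusted p under 0.05 with a value below 0 (6.76% of all genes), and 31 of 32 were below 0 (49.7% of all genes). The median was -0.58 over the members and 0.0025 over all genes. Derl3 went from 0.71 to -0.97, a difference of -1.68 ± 0.34 (adjusted p = 0.190). Hyou1 differed by -1.08 ± 0.25 (adjusted p = 0.212), Creld2 by -1.09 ± 0.26 (0.213), Pdia4 by -1.02 ± 0.24 (0.212) and Hspa5 by -1.0 ± 0.25 (0.227). Hsp90b1 differed by -0.59 ± 0.18 (adjusted p = 0.276) and Sec61a1 by -0.55 ± 0.18 (0.292). Of the sensors, Ern1 differed by -1.03 ± 0.35 (adjusted p = 0.302), Eif2ak3 by -0.28 ± 0.22 (0.576), Atf6 by -0.26 ± 0.15 (0.461) and Xbp1 by -0.16 ± 0.24 (0.786).

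Which KO-TRAMP mice were kept at 30 weeks set the size of this difference. Without library 16, limma called 18 members, all below 0 (1944 of 16456 genes in all), with a median of -0.77. Without libraries 17 and 18, which again leaves library 16 as the lone KO-TRAMP library at 30 weeks, the median was -0.23, 5 members had an unadjusted p under 0.05 (1441 of 16022 genes), and the values of Xbp1 and Eif2ak3 were 0.30 and 0.11.

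**Figure D4:**
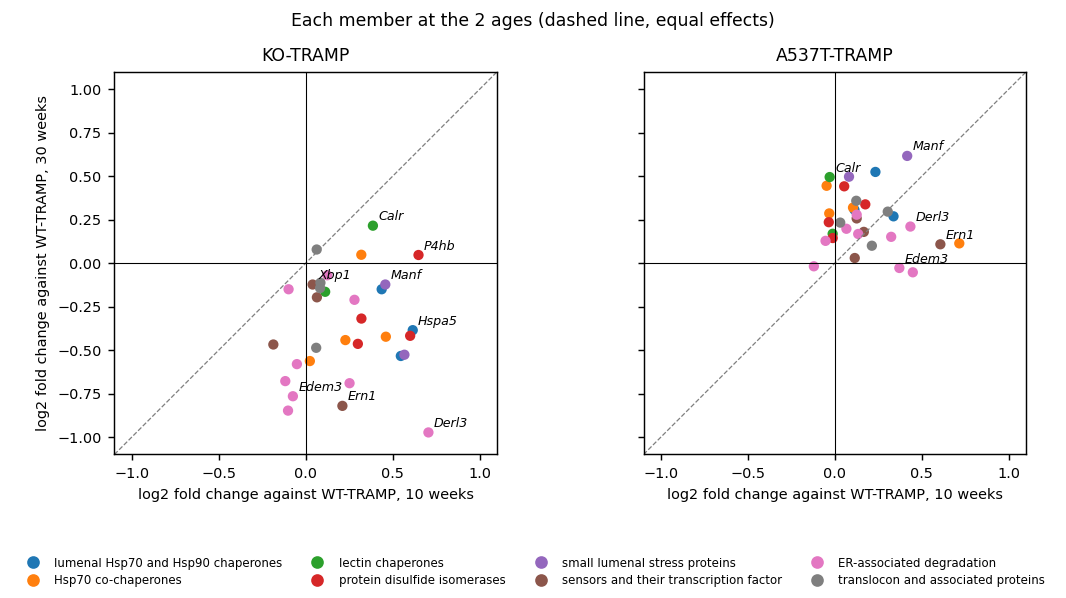
Each point is a member, with its log2 fold change against WT-TRAMP at 10 weeks on the horizontal and at 30 weeks on the vertical axis, coloured by role. In KO-TRAMP 31 of 32 members lie below the dashed line of equal effects, and the chaperones are mostly right of the vertical and below the horizontal zero line, while in A537T-TRAMP 22 of 32 lie above the line.

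For A537T-TRAMP no member and no gene passed (0% of 15941), 1 member, Calr, had an unadjusted p under 0.05 with a value above 0 (2.66% of all genes), and 22 of 32 were above 0 (50.5% of all genes), with a median of 0.15. Calr went from -0.030 to 0.49, a difference of 0.52 ± 0.22 (adjusted p = 0.721). Pdia6 differed by 0.39 ± 0.20, Sdf2l1 by 0.49 ± 0.28, Creld2 by 0.42 ± 0.25 and Dnajc3 by 0.32 ± 0.21, and Dnajb9 by -0.60 ± 0.43, with adjusted p between 0.721 and 0.730. Hspa5 differed by 0.29 ± 0.26 (adjusted p = 0.758), Ern1 by -0.50 ± 0.31 (0.723), Atf6 by -0.085 ± 0.18 (0.893), Eif2ak3 by 0.013 ± 0.20 (0.987) and Xbp1 by 0.13 ± 0.17 (0.820). Without library 6 the median was 0.016.

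Other genes of the pathway, from lists fixed by name, were counted in the same fits, and none passed an adjusted p of 0.05 in any of the 4 comparisons. The PERK branch (12 genes) had a median of -0.12 (KO-TRAMP) and 0.18 (A537T-TRAMP) at 10 weeks, followed by 0.12 and 0.048 at 30 weeks. Among its genes were Nupr1, a stress-induced cofactor, at -1.04 ± 0.32 in KO-TRAMP at 10 weeks (adjusted p = 0.716), Atf3, a stress-induced transcription factor, at -0.72 ± 0.22 in A537T-TRAMP at 10 weeks (0.600), and Ddit4, an inhibitor of mTORC1 signalling, at 30 weeks at 0.41 ± 0.14 in the KO-TRAMP comparison (0.351) and 0.53 ± 0.12 in that of A537T-TRAMP (0.436). Of the other 24 folding enzymes and chaperones, 22 were above 0 in A537T-TRAMP at 30 weeks, with a median of 0.19, and 20 were below 0 in KO-TRAMP at 30 weeks, with a median of -0.13. Fkbp11, a prolyl isomerase of secretory cells, was at 0.64 ± 0.14 in A537T-TRAMP at 30 weeks (adjusted p = 0.436), and Serp1, which stabilises proteins at the translocon, at -0.53 ± 0.17 in KO-TRAMP at 30 weeks (0.335).

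The 25 genes of translocation, glycosylation and signal peptidase behaved likewise at 30 weeks, with 21 below 0 in KO-TRAMP (median -0.17) and 24 above 0 in A537T-TRAMP (median 0.19). Srp72, of the signal recognition particle, was at -0.37 ± 0.11 in KO-TRAMP (adjusted p = 0.327), and Spcs3, of signal peptidase, at 0.27 ± 0.09 in A537T-TRAMP (0.666). The 16 other genes of ER-associated degradation had medians between -0.0076 and 0.12 in the 4 comparisons. Among 9 further transcription factors and proteases, of which 8 were tested, Creb3l4 was at -0.67 ± 0.16 in KO-TRAMP at 10 weeks (adjusted p = 0.659) and Creb3l1 at 1.61 ± 0.40 in KO-TRAMP at 30 weeks (0.285), on a mean of 8.65 normalized counts in WT-TRAMP.

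Heat shock proteins of the cytosol and, with Hspd1 and Hspe1, the mitochondria served as a comparison list of 11 genes, which are mainly under the heat shock factor HSF1. In KO-TRAMP at 30 weeks 9 were above 0 with a median of 0.33, and 7 had an unadjusted p under 0.05, all higher (2289 of 16900 genes had such a p, in either direction). Hsph1 was at 0.45 ± 0.11 (adjusted p = 0.284) and Hspe1, the mitochondrial partner of Hsp60, at 0.50 ± 0.13 (0.297). In A537T-TRAMP at 30 weeks 11 of 11 were above 0, with a median of 0.40, and Hspa8, the constitutive Hsp70, was at 0.49 ± 0.08 (0.252). At 10 weeks their median was 0.15 for KO-TRAMP against 0.032 for A537T-TRAMP. Hspa1a, the inducible Hsp70, was at 1.07 ± 0.24 (adjusted p = 0.659) and 1.82 ± 0.38 (0.600) in these comparisons.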

How the data were processed

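Reads were processed by the authors with Trim Galore 0.4.1, cutadapt 1.18, STAR 2.7.3a, Salmon and DESeq2 1.26 on GRCm38.p6, per the labels (the submitters' processing notes) and the study's methods. The deposited tables hold a normalized count signal per gene, gene counts divided by the size factors of the 6 libraries in a table. Every value was a whole multiple of its library's smallest value (within 0.001), and reads were recovered from these steps. Deposited tables of the authors' comparisons (base mean, shrunken log2 fold change, posterior SD and s-value) were not used. Genes with a mean of at least 10 were tested with limma 3.58.1 (empirical Bayes with a mean trend) on log2(normalized count + 1), mutant against WT-TRAMP within a table, with Benjamini-Hochberg adjustment over all genes, and the difference between ages was a contrast over both tables. On this scale the fold change of low genes is understated. Full test values are given for Atf6, Ern1, Eif2ak3, Xbp1, Hspa5 and the 6 other members with the smallest p in each comparison, and values of further members were added after they were seen. Genes of other lists are those with the smallest p, at most 2 per list. edgeR 4.0.16 and DESeq2 1.42.0 were run on the recovered reads (R 4.3.3). Scripts were tested on simulated data. Members and lists were chosen with earlier results of these data known. WT-TRAMP libraries were the columns found in both tables of an age, and 0 columns stayed without a group. All pairs of replicates differed by more than sampling noise.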

Additional observations from a re-analysis of the deposited data

Results flagged for a closer look

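Creld2 and Derl3 were in opposite places in KO-TRAMP at the 2 ages: all 3 KO-TRAMP libraries lay above all WT-TRAMP libraries at 10 weeks and below all of them at 30 weeks. Over all genes, 5.77% lay above at 10 weeks and 9.48% below at 30 weeks. The share of all genes that did both was not counted. The effect at 30 weeks minus the effect at 10 weeks was -1.09 for Creld2 (limma adjusted p = 0.213) and -1.68 for Derl3 (adjusted p = 0.190), so the difference between ages did not pass the test for either gene. Groups of 3 are too small to test a library as an outlier.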

How the results depend on the processing

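No paired analysis was possible because the columns carry no replicate number. No member passed an adjusted p of 0.05 in any limma fit with another pseudocount (0.5 or 5), without the filter on low values or with TMM scaling, or in edgeR. DESeq2 called 6 members in KO-TRAMP at 10 weeks, 1 at 30 weeks and 3 in A537T-TRAMP at 30 weeks. With array weights 26 members passed in KO-TRAMP (28 at an unadjusted p under 0.05) and 20 in A537T-TRAMP (24) at 30 weeks. The weights did not converge in these tables, where 10748 and 3388 of all genes passed. An unadjusted p under 0.05 was then found for 11466 of 16900 and 6231 of 16261 genes. In A537T-TRAMP at 10 weeks the count at an unadjusted p under 0.05 was 1 without the filter (1973 of 26704 genes). It was 2 with TMM scaling (1207 of 15438 genes), 1 with array weights (3214), 2 in edgeR (1363) and 3 in DESeq2 (1588). Array weights left 13 members above 0, with Atf6, Xbp1 and Hspa5 at -0.030, -0.047 and -0.027. In KO-TRAMP at 30 weeks edgeR gave 4 members at an unadjusted p under 0.05 (2643 of 16900 genes). TMM scaling put the age difference of Eif2ak3 in A537T-TRAMP at -0.0070.

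Settings without doubted libraries were chosen after seeing the data, and each leaves a lone mutant library that is assumed to vary like the other group. Without libraries 5 and 6 the A537T-TRAMP median at 10 weeks was 0.31, with 5 members at an unadjusted p under 0.05. Without libraries 17 and 18 the KO-TRAMP median at 30 weeks was -0.028, with 17 members below 0, 3 at an unadjusted p under 0.05 and Xbp1 at 0.34, and the age difference had a median of -0.23, 5 such members, Eif2ak3 at 0.11 and Xbp1 at 0.30.

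Leaving out each library in turn, members past the threshold ranged from 0 to 11 in KO-TRAMP at 30 weeks and from 0 to 18 for its age difference, both highest without library 16. Members at an unadjusted p under 0.05 ranged from 9 to 14 in KO-TRAMP and 0 to 6 in A537T-TRAMP at 10 weeks. At 30 weeks they ranged from 3 to 22 and from 8 to 17, and for the A537T-TRAMP age difference from 0 to 6. In the fits with the highest counts, 779 of 15328 and 933 of 15279 genes had such a p at 10 weeks. The numbers were 6624 of 16950 and 1787 of 16297 at 30 weeks, and 2978 of 16010 for the age difference. The median age difference ranged from -0.77 to -0.39 in KO-TRAMP and from 0.016 to 0.22 in A537T-TRAMP. At 10 weeks in KO-TRAMP Atf6 ranged from -0.0051 to 0.16 and Xbp1 from -0.0062 to 0.11, and Xbp1 from -0.35 to 0.069 at 30 weeks and from -0.39 to 0.030 for the age difference. The A537T-TRAMP age difference ranged from -0.21 to 0.029 for Atf6, -0.11 to 0.13 for Eif2ak3 and -0.025 to 0.23 for Xbp1. The cause was not tested. Of all values recomputed, 300 counts and medians kept their size and 48 did not, and 895 values of single members kept their direction and side of the threshold, 44 newly passed it and 18 turned sign. With 3 libraries a group, precision is limited by the spread between mice and not by read depth.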
